A study of Mus musculus with 6 samples.

Results

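The 8 genes described here encode the kinases and adaptors that act first behind the T cell receptor (TCR): Lck, Fyn, Zap70, Lat, Lcp2, Plcg1, Prkcq and Vav1. The set was named by gene symbol, with no threshold on measured values but with earlier results of these data known. All 8 were found among the 32377 gene identifiers of the mouse count table and passed the filter on low counts. The table gives RNA-seq counts for 6 libraries, 3 of them under the name TNFR2-deficient Treg and the other 3 under TNFR2 positive Treg. Treg cells are regulatory CD4 T cells that depend on the transcription factor Foxp3, and TNFR2, the product of Tnfrsf1b, is a tumour necrosis factor receptor that many of them carry. The labels give no strain, age, tissue, sort, treatment or time for either group, nor how TNFR2 was lost, and nothing in them ties a library to an animal of its own. The p-values below therefore rest on the scatter among 3 libraries a group, and that scatter could be technical only. By its labels the series sets TNFR2-deficient against TNFR2-expressing Treg cells. The markers given further on do not bear out the Treg label in the TNFR2-deficient libraries. In the TNFR2 positive libraries Treg markers were present, but abundant B cell markers do not bear out Treg cells alone.

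When a TCR binds its ligand, the Src family kinases LCK and FYN phosphorylate tyrosines in the CD3 chains and in CD247 (the zeta chain), and the kinase ZAP-70 docks there and is switched on. ZAP-70 then phosphorylates the adaptors LAT, anchored in the membrane, and SLP-76, the product of Lcp2, on which PLC-gamma-1 (Plcg1) and the guanine nucleotide exchange factor VAV1 assemble. PLC-gamma-1 splits a membrane lipid into a calcium-releasing messenger and diacylglycerol, and diacylglycerol recruits PKC-theta (Prkcq), which connects the receptor to NF-kB. Lck is also known for its pair of promoters. The one nearer the coding exons is used mainly in thymocytes, the distal one also in mature T cells, and a count per gene adds both together.

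Promoter windows are shown for the genes with the greatest differences between the groups, Lck and Lat on the higher side and Fyn and Prkcq on the lower side. Each is the 250 bases before an annotated start from RefSeq on build GRCm38.p6, 5′ to 3′ on the gene's strand, with the letters AGGAAG, or CTTCCT on the other strand, in capitals. AGGAAG holds the core bound by ETS factors, a family with members of known importance in T cells.
Lck distal (chr4:129573642-129573891, minus strand): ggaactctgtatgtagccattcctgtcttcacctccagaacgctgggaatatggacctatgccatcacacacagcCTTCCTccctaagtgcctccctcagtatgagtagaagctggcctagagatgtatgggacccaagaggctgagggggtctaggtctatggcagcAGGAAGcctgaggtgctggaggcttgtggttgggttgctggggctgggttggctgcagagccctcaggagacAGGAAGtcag
Lck proximal (chr4:129558373-129558622, minus strand): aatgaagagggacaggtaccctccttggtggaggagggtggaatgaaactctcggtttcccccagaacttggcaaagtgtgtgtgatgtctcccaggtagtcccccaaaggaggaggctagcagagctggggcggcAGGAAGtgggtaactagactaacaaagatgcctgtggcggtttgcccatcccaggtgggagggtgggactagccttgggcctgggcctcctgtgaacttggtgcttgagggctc
Lat (chr7:126369569-126369818, minus strand): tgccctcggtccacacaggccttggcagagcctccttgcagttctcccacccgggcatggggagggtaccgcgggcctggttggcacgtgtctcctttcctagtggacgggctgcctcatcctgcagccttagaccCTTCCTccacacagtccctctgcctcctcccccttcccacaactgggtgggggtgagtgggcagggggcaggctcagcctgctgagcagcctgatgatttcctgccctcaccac
Fyn (chr10:39369549-39369798, plus strand): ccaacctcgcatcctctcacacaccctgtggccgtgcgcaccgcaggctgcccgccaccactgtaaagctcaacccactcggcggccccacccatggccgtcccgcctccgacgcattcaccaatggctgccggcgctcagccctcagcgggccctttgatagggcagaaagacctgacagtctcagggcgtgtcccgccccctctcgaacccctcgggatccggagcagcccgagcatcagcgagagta
Prkcq (chr2:11172132-11172381, plus strand): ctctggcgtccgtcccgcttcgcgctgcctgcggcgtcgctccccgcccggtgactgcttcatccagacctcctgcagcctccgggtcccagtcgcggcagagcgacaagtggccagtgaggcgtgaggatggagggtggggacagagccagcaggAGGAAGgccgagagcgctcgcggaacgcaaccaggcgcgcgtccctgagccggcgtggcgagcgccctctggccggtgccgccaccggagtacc
The Lck windows lie 15.3 kb apart, and the distal one holds AGGAAG 3 times against 1 time in the proximal one. Lat and Prkcq hold it once each, and the Fyn window does not hold it. All 8 genes matched the RefSeq table, with 11 windows in all, 3 of them for Zap70. AGGAAG stood on either strand in 8 of the 11 windows, or 72.7%, against 29.5% of all 32851 windows of this length. TGTGGT, a RUNX core, was in 2 of the 11 windows against 14.0% of all windows, and CTTTGA, a TCF/LEF core, was in 3 against 13.8%. CAGCTG, an E box, was in 1, and in 4271 of all 32851 windows. These are matches of letters on either strand, the 11 windows include several of 1 gene, and the counts below do not show which start was used.

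The libraries held 19296082 to 24038118 counts each, and the 8 genes had between 862 and 11994 counts in a library, so that counting error was small. Tnfrsf1b averaged 7.87 ± 0.503 CPM in TNFR2-deficient libraries and 83.0 ± 2.48 CPM in TNFR2 positive libraries (CPM, a gene's counts set to a common library total with TMM factors, SD, n = 3 each), the direction of the label. The libraries stood apart in their cell markers as well. The 12 Treg markers summed to 42.3 to 49.5 CPM in TNFR2-deficient libraries against 666.6 to 738.5 CPM in TNFR2 positive ones, with Foxp3 at 1.44 ± 0.0974 and 75.5 ± 2.14 CPM. The 6 markers of immature thymocytes summed to 1732 to 1850 CPM against 11.2 to 12.9 CPM, with Rag1 at 917.9 ± 72.7 and 3.31 ± 0.0785 CPM, while Rag2 and Ptcra had no counts in some TNFR2 positive libraries. Summed CPM in TNFR2-deficient against TNFR2 positive libraries was 7414 to 7747 against 6117 to 6279 for 8 B cell markers, 18067 to 20615 against 4236 to 7010 for 7 erythroid markers, 686.9 to 733.9 against 452.4 to 504.8 for 8 myeloid markers, and 34.2 to 35.6 against 109.0 to 118.9 for 6 NK cell markers. Platelet markers, of which 5 of 6 were found, summed to 14.0 to 16.6 against 4.67 to 5.52 CPM. The 4 CD3 chains (Cd3d, Cd3e, Cd3g and Cd247) summed to 702.1 to 746.9 CPM against 326.2 to 352.5 CPM. TNFR2 positive library 1 differed from the other libraries of its group by a chi-square per gene of 13.9 and 18.5, against 2.45 between those, and the 6 calls below were kept without it. The part of these markers and of this library in the results below was not tested beyond the values given, and in bulk RNA fewer cells of a type and less RNA per cell cannot be told apart.

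The 8 genes did not move as a block. Of the 8, 4 rose and 2 fell in TNFR2-deficient libraries at an adjusted p below 0.05 in edgeR's quasi-likelihood test, where 69.3% of the 17022 genes tested were called, 35.1% of them higher and 34.2% lower. The number of these genes called is therefore near the background and is no result about them. Their median log2 fold change (log2FC, TNFR2-deficient over TNFR2 positive) was 0.19, against 0.04 over all genes tested, and the single values ran from -0.83 for Prkcq to 1.66 for Lat. The groups did not overlap for 7 of the 8 genes, against 74.5% of all genes tested. Called rises of at least 2-fold, which 8.01% of all genes showed, were seen for Lat and Lck. None of the 8 had a called fall of 2-fold or more, as 13.5% of all genes did. Tested against a minimum log2 fold change of 1, Lck and Lat were called higher and none lower, against 4.49% and 8.42% of all genes.

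**Figure D1:**
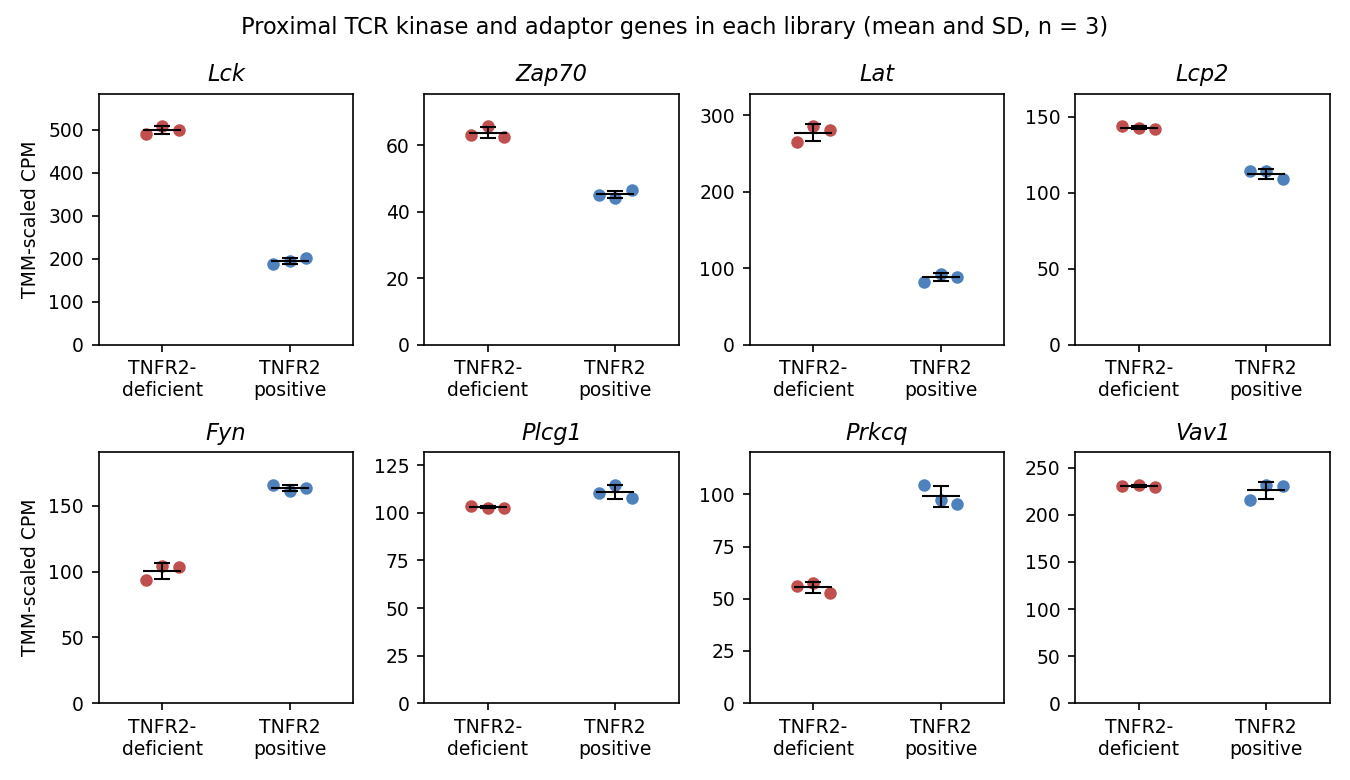
TMM-scaled CPM of the 8 genes (vertical axes, each from 0) in the 3 TNFR2-deficient and the 3 TNFR2 positive libraries, 1 point per library, with the mean and SD. Lck, Lat, Zap70 and Lcp2 sit higher in TNFR2-deficient libraries, Fyn and Prkcq lower, and for Vav1 the points of both groups overlap.

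Of the Src family kinases, Lck rose and Fyn fell. Lck (ENSMUSG00000000409, chromosome 4) had 489.7, 507.9 and 498.7 CPM in TNFR2-deficient libraries, against 188.1, 195.6 and 201.1 CPM in the TNFR2 positive libraries. Every TNFR2-deficient library was more than 2-fold above every TNFR2 positive one, and the fold change was 2.56 (log2FC = 1.36, SE 0.0571, edgeR adjusted p = 3.38e-09). Fyn (ENSMUSG00000019843, chromosome 10), a kinase with a broader tissue range than Lck, was at 93.4, 104.1 and 103.7 CPM in TNFR2-deficient libraries, against 166.2, 161.4 and 163.8 CPM in TNFR2 positive libraries. The groups were separate and Fyn was 1.63-fold lower (log2FC = -0.71, SE 0.0620, edgeR adjusted p = 1.5e-06). Per kb of exonic length, Lck exceeded Fyn 7.81-, 7.27- and 7.17-fold in the TNFR2-deficient libraries, against 1.69-, 1.81- and 1.83-fold in the TNFR2 positive ones. The ratio averaged 7.42 ± 0.345 and 1.77 ± 0.0767 (SD, n = 3 each), without overlap. A two-sided exact permutation test of the log2 ratio gave p = 0.1, the smallest that 3 against 3 libraries allow. That value follows from the lack of overlap and adds nothing to it.

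Zap70, which encodes the kinase recruited to the phosphorylated CD3 and zeta chains, rose by a smaller step. Zap70 (ENSMUSG00000026117, chromosome 1) was at 63.1, 65.7 and 62.6 CPM in TNFR2-deficient libraries, against 45.1, 44.1 and 46.4 CPM in TNFR2 positive libraries. All TNFR2-deficient libraries lay above the others, and the fold change was 1.41 (log2FC = 0.50, SE 0.0585, edgeR adjusted p = 1.51e-05).

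Of the adaptors, Lat showed the greatest rise of the 8 genes and Lcp2 a small one. Lat (ENSMUSG00000030742, chromosome 7) had 264.3, 285.4 and 280.6 CPM in TNFR2-deficient libraries, against 82.1, 92.4 and 88.9 CPM in the TNFR2 positive libraries. The groups lay far apart, with a fold change of 3.15 (log2FC = 1.66, SE 0.0657, edgeR adjusted p = 2.17e-09), a higher log2FC than that of 96.2% of the genes tested. Lcp2 (ENSMUSG00000002699, chromosome 11), the gene of SLP-76, was at 143.7, 142.3 and 141.9 CPM in TNFR2-deficient libraries, against 114.4, 114.0 and 108.8 CPM in TNFR2 positive libraries. The difference was 1.27-fold and exceeded the spread in both groups (log2FC = 0.34, SE 0.0556, edgeR adjusted p = 0.00017). The exons of Lcp2 overlap an annotated gene on the opposite strand over 6.32% of their length, and that gene had 86 counts over all libraries against 17113 for Lcp2.

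Of the enzyme and exchange factor that join the LAT and SLP-76 assembly, Plcg1 and Vav1, neither passed the threshold, and Prkcq, whose product is recruited by the diacylglycerol that PLC-gamma-1 makes, fell. Prkcq (ENSMUSG00000026778, chromosome 2) had 56.3, 57.7 and 52.7 CPM in TNFR2-deficient libraries, against 104.6, 97.1 and 95.4 CPM in the TNFR2 positive libraries. The groups did not overlap and Prkcq was 1.78-fold lower (log2FC = -0.83, SE 0.0641, edgeR adjusted p = 5.25e-07). Plcg1 (ENSMUSG00000016933, chromosome 2) was at 103.8, 102.5 and 102.7 CPM in TNFR2-deficient libraries, against 110.5, 114.8 and 107.6 CPM in TNFR2 positive libraries. Each TNFR2-deficient value was below each TNFR2 positive one, but the difference missed the threshold (log2FC = -0.11, 95% interval -0.23 to 0.016, edgeR adjusted p = 0.109). Its direction and call depended on gene length: with the relation of counts to gene length removed, its log2FC was 0.19 (edgeR adjusted p = 0.0054). In that fit 5 of the 8 genes were called higher and 2 lower, against 33.4% and 33% of all genes, or 66.4% in either direction. Part of the Plcg1 exons (4.82%) is shared with Zhx3 on the opposite strand, which had 1742 counts in all against 14265 for Plcg1, and without strand information these reads cannot be told apart. Vav1 (ENSMUSG00000034116, chromosome 17), which is expressed across blood cell lineages, was at 230.2, 232.0 and 230.0 CPM in TNFR2-deficient libraries, against 215.8, 231.8 and 230.5 CPM in TNFR2 positive libraries. The groups overlapped. With TMM scaling the interval of the difference allows a change of at most 0.15 on the log2 scale in either direction (log2FC = 0.03, 95% interval -0.094 to 0.15, edgeR adjusted p = 0.654). On the scales of Trac and of the CD3 chains, given below, Vav1 was called lower (log2FC = -0.53 and -1.05), as were 62.1% and 84.4% of all genes.

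Levels of different genes were compared per kb of exonic length. In TNFR2-deficient libraries the order was Lck (170.3 ± 3.11 CPM per kb), Lat (100.03 ± 4.0), Vav1 (62.6 ± 0.301), Lcp2 (32.0 ± 0.215), Fyn (23.0 ± 1.38), Zap70 (21.3 ± 0.555), Plcg1 (13.1 ± 0.0892) and Prkcq (7.85 ± 0.366). In TNFR2 positive libraries it was Lck (66.6 ± 2.23 CPM per kb), Vav1 (61.3 ± 2.41), Fyn (37.5 ± 0.544), Lat (31.7 ± 1.90), Lcp2 (25.2 ± 0.710), Zap70 (15.1 ± 0.377), Plcg1 (14.1 ± 0.459) and Prkcq (14.0 ± 0.692). Neighbours in these orders had separate ranges except Fyn and Zap70 in TNFR2-deficient libraries and Plcg1 and Prkcq in TNFR2 positive libraries. Lck and Lat together dominated the set in TNFR2-deficient libraries, where Lck held 39.6% ± 0.111 and Lat 23.2% ± 0.485 of the summed level per kb, against 25.1% ± 0.501 and 11.9% ± 0.513 in TNFR2 positive libraries. Fyn held 5.35% ± 0.228 in TNFR2-deficient libraries against 14.1% ± 0.452 in TNFR2 positive libraries, and Prkcq 1.82% ± 0.0863 against 5.27% ± 0.356. These shares and orders depend on the length used. With the length of the longest protein-coding transcript in place of exonic length, 6 of the 8 genes kept their rank in TNFR2-deficient libraries and 4 of the 8 in TNFR2 positive ones. By that length Lck and Lat were nearly equal in TNFR2-deficient libraries, at 228.3 and 224.1 CPM per kb. In TNFR2 positive libraries Lat then stood above Fyn, at 71.1 against 46.0 CPM per kb, and Zap70 was last.

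**Figure D2:**
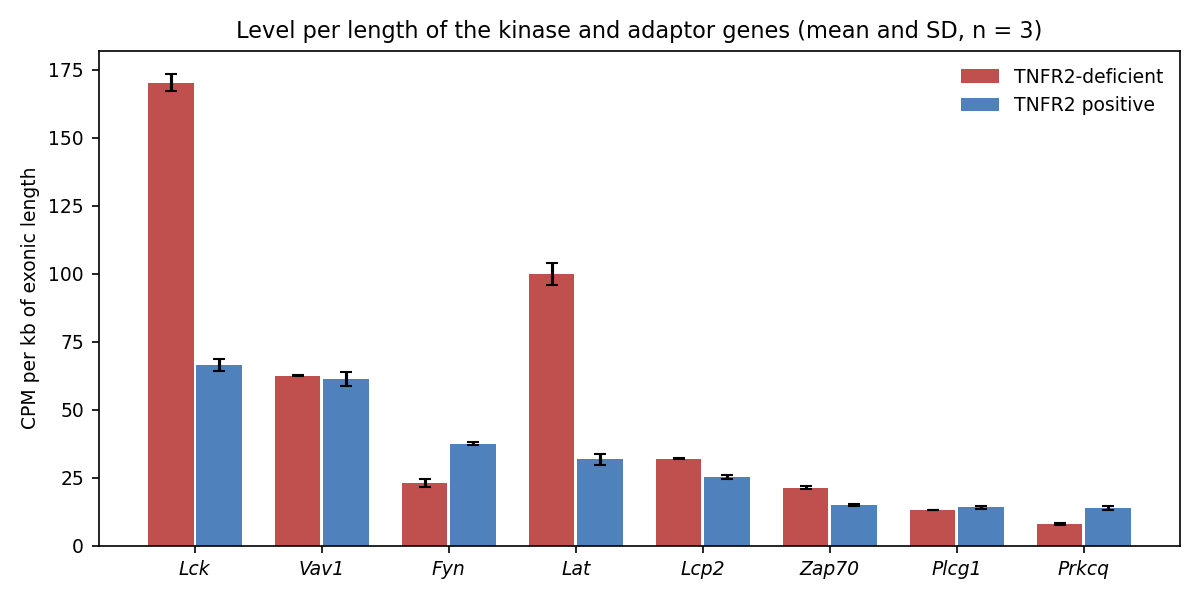
Level per kb of exonic length of the 8 genes, with bars for the mean and error bars for the SD of the 3 TNFR2-deficient and the 3 TNFR2 positive libraries, ordered by the level in TNFR2 positive libraries. Lck and Lat stand at 170.3 and 100.03 CPM per kb in TNFR2-deficient libraries, against 66.6 and 31.7 in TNFR2 positive libraries.

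Most transcripts of the TCR complex and coreceptors were also more abundant in the TNFR2-deficient libraries, so the 8 genes were set beside them. Of 11 genes of the TCR complex and coreceptors, 10 rose and none fell (median log2FC = 1.47, against 0.04 over all genes), where 35.1% of all genes were called higher and 34.2% lower. On the scale of the CD3 chains, which are 4 of the 11, 6 were higher and 3 lower, against 4.02% and 84.4% of all genes. Scaled to Trac, also of the 11, 9 were higher and 1 lower, against 8.78% and 62.1%. Each of these scales was set by genes of the list itself. Immature thymocyte markers were higher in the same libraries and Treg markers lower, as given above, and their part in this was not tested. The leading genes by adjusted p were the coreceptor genes Cd4, Cd8a and Cd8b1, with log2FC of 2.23, 2.20 and 2.24 (edgeR adjusted p = 5.63e-11, 6.12e-11 and 1.65e-10). Counts of Lck came to 69.2% ± 1.60 of the summed counts of the 4 CD3 chains in TNFR2-deficient libraries, against 57.1% ± 0.471 in TNFR2 positive libraries (SD, n = 3 each). Counts of Lat came to 38.4% ± 1.48 against 25.7% ± 0.932. The other 6 genes were lower relative to the CD3 chains in TNFR2-deficient libraries, from Zap70, at 8.85% ± 0.0615 against 13.3% ± 0.532, to Prkcq, at 7.70% ± 0.191 against 29.1% ± 2.63. Vav1 came to 32.0% ± 0.870 against 66.2% ± 0.911, Plcg1 to 14.3% ± 0.500 against 32.6% ± 1.78 and Lcp2 to 19.8% ± 0.652 against 33.0% ± 2.11. Fyn came to 13.9% ± 0.838 of CD3 counts in TNFR2-deficient libraries against 48.1% ± 2.49 in TNFR2 positive libraries.

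The choice of scale therefore set the direction of Zap70 and Lcp2. With the libraries scaled to the CD3 chains, the median log2FC of all genes moved to -1.03, 4.02% of genes were called higher and 84.4% lower (88.4% in either direction), and of the 8 genes 2 were called higher and 6 lower. Lck and Lat were higher on that scale (log2FC = 0.28 and 0.58, edgeR adjusted p = 0.00109 and 1.18e-05), while Zap70 and Lcp2 were lower (log2FC = -0.58 and -0.74, edgeR adjusted p = 8.4e-06 and 3.38e-06). Trac, the constant region of the TCR alpha chain, rose less than the CD3 chains (log2FC = 0.56, edgeR adjusted p = 3.24e-06). Scaled to Trac, an alternative chosen after the data were seen, the median of all genes was -0.52, and of the 8 genes 2 were called higher and 5 lower, against 8.78% and 62.1% of all genes (70.9% in either direction). Zap70 was then at -0.068 (edgeR adjusted p = 0.345). Lck and Lat were called higher, and Fyn and Prkcq lower, on each of the 4 scales plotted. With TMM, Cd247 and the TCR beta constant regions Trbc2 and Trbc1 rose by more than Lck (log2FC = 1.47, 1.89 and 2.04). The coreceptor genes Cd4, Cd8a and Cd8b1 did so too, whereas Cd3e, Cd3d and Cd3g rose by less (log2FC = 0.92, 0.99 and 1.02). Scaling to any of these genes alone was not tested, so the directions of Lck and Lat hold for the scales plotted only.

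**Figure D3:**
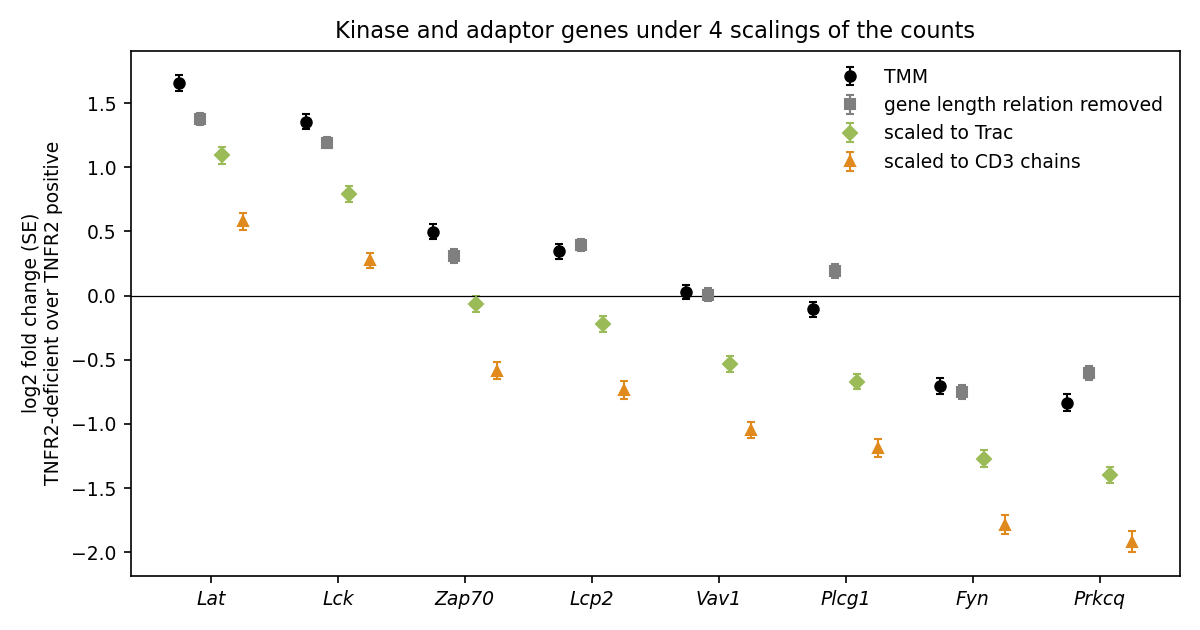
Log2 fold change with SE of each of the 8 genes, TNFR2-deficient over TNFR2 positive, with counts scaled by TMM, with the relation to gene length removed, scaled to Trac and scaled to the CD3 chains. Lat and Lck stay above 0 and Fyn and Prkcq below 0 on all 4 scales, whereas Zap70, Lcp2, Plcg1 and Vav1 lie on both sides of 0.

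The paralogs of the 8 genes include the kinases and adaptors that do the same work behind the B cell receptor. Of 21 paralogs 20 were tested, of which 3 rose and 11 fell (median log2FC = -0.25), against 35.1% of all genes called higher and 34.2% lower, and Frk did not pass the filter on low counts. The median was -0.10 with 9 lower when the length relation was removed, and -0.11 with 10 lower with no filter beyond at least 1 count. On the scale of the CD3 chains all 20 were called lower, against 84.4% of all genes. Lyn, a kinase of B cells and myeloid cells, had the highest mean CPM of the Src family paralogs, at 353.8 ± 7.21 CPM in TNFR2-deficient libraries and 348.4 ± 9.06 CPM in TNFR2 positive libraries (log2FC = 0.02, edgeR adjusted p = 0.733). Per kb Blk, a Src family kinase of B cells named after its values were seen, was above Lyn, at 125.5 against 86.9 CPM per kb in TNFR2-deficient libraries and 111.5 against 85.5 in TNFR2 positive ones, and it rose (log2FC = 0.17, edgeR adjusted p = 0.0153). Syk, the paralog of Zap70 used by the B cell receptor, fell, at 633.9 ± 21.6 against 851.0 ± 30.7 CPM (log2FC = -0.42, edgeR adjusted p = 4.64e-05). Per kb, Syk stood at 67.7 CPM in TNFR2-deficient libraries and 90.9 CPM in TNFR2 positive libraries, above Zap70 in both. Blnk, the B cell counterpart of Lcp2, rose (log2FC = 0.50, edgeR adjusted p = 5.06e-05), and Plcg2, the counterpart of Plcg1, fell (log2FC = -0.44, edgeR adjusted p = 3.06e-05). Vav2 fell (log2FC = -0.35, edgeR adjusted p = 0.000436). Lat2 and Prkcb, at log2FC of 0.14 and 0.11, did not pass (edgeR adjusted p = 0.0542 and 0.309). B cell markers such as those summed above were abundant in every library of both groups, and their part in the levels of genes that B cells share was not tested.

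Among proteins that join the LAT and SLP-76 assembly, 11 of 22 rose and 6 fell (median log2FC = 0.21), against 35.1% and 34.2% of all genes. On the scale of the CD3 chains 2 were higher and 20 lower (median log2FC = -0.87), against 4.02% and 84.4% of all genes. Themis, which encodes a thymocyte-selection protein that binds the adaptor GRB2, rose to 182.3 ± 0.313 CPM in TNFR2-deficient libraries, against 36.8 ± 5.88 CPM in TNFR2 positive libraries (log2FC = 2.31, edgeR adjusted p = 3.02e-09). Nck2, the gene of an adaptor that links SLP-76 to the actin cytoskeleton, rose as well (log2FC = 1.57, edgeR adjusted p = 2.72e-09). Sos2, a Ras exchange factor brought to LAT by GRB2, fell (log2FC = -0.93, edgeR adjusted p = 8.39e-07). Of the steps directly downstream, 5 of 15 rose and 6 fell (median log2FC = -0.07), near the 35.1% and 34.2% of all genes. The count of 5 was not stable. It was 3 with DESeq2, with RLE size factors, with library size alone and with a filter of 1 CPM. The same count of 3 came when TNFR2-deficient library 1 or 3, or TNFR2 positive library 2 or 3, was left out. On the scale of the CD3 chains none were higher and 15 lower in edgeR's test, against 4.02% and 84.4% of all genes. Malt1, the paracaspase that acts behind PKC-theta on the way to NF-kB, fell to 176.9 ± 6.30 CPM in TNFR2-deficient libraries, against 384.5 ± 35.7 CPM in TNFR2 positive libraries (log2FC = -1.12, edgeR adjusted p = 1.3e-07). Itpr3 and Itpr1, calcium channels opened by the messenger that PLC-gamma-1 makes, fell by 0.75 and 0.93 on the log2 scale (edgeR adjusted p = 4.48e-06 and 4.87e-06).

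Transmembrane adaptors other than Lat included members that rose as far as Lat. Of 5 genes 4 were tested, and Lime1 did not pass the filter on low counts. Of the 4 tested, 3 rose and none fell (median log2FC = 1.05), against 35.1% of all genes called higher and 34.2% lower. The median over all 5 genes was 0.23 with DESeq2 and 0.28 with no filter beyond at least 1 count. Without TNFR2 positive library 3, 1 gene was called lower, and on the scale of the CD3 chains 2 were higher and 2 lower (median log2FC = -0.025). Sit1 and Trat1, adaptors of lymphocytes that bind signalling proteins at the membrane, rose by a log2FC of 1.90 and 1.86 (edgeR adjusted p = 5.54e-09 and 1.15e-09). Lax1 rose by 0.25 on the log2 scale (edgeR adjusted p = 0.00137). Enzymes and adaptors that act on the kinases moved both ways, with 5 of 14 higher and 7 lower (median log2FC = -0.03), against the same shares of all genes. The median was 0.03 with 4 lower when the length relation was removed, and 1 was higher and 13 lower on the scale of the CD3 chains. Sla2, an adaptor that dampens TCR signalling, rose (log2FC = 1.36, edgeR adjusted p = 1.9e-08). Ubash3b, a phosphatase that acts on ZAP-70 and SYK, fell (log2FC = -1.25, edgeR adjusted p = 8.37e-08), and Cblb, a ubiquitin ligase that restrains T cell activation, fell too (log2FC = -0.89, edgeR adjusted p = 1.2e-06). Over the pathway and paralog lists together, 37 of 86 tested genes rose and 30 fell, against 35.1% and 34.2% of all genes. On the scale of the CD3 chains, 11 were higher and 73 lower, against 4.02% and 84.4% of all genes.

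**Figure D4:**
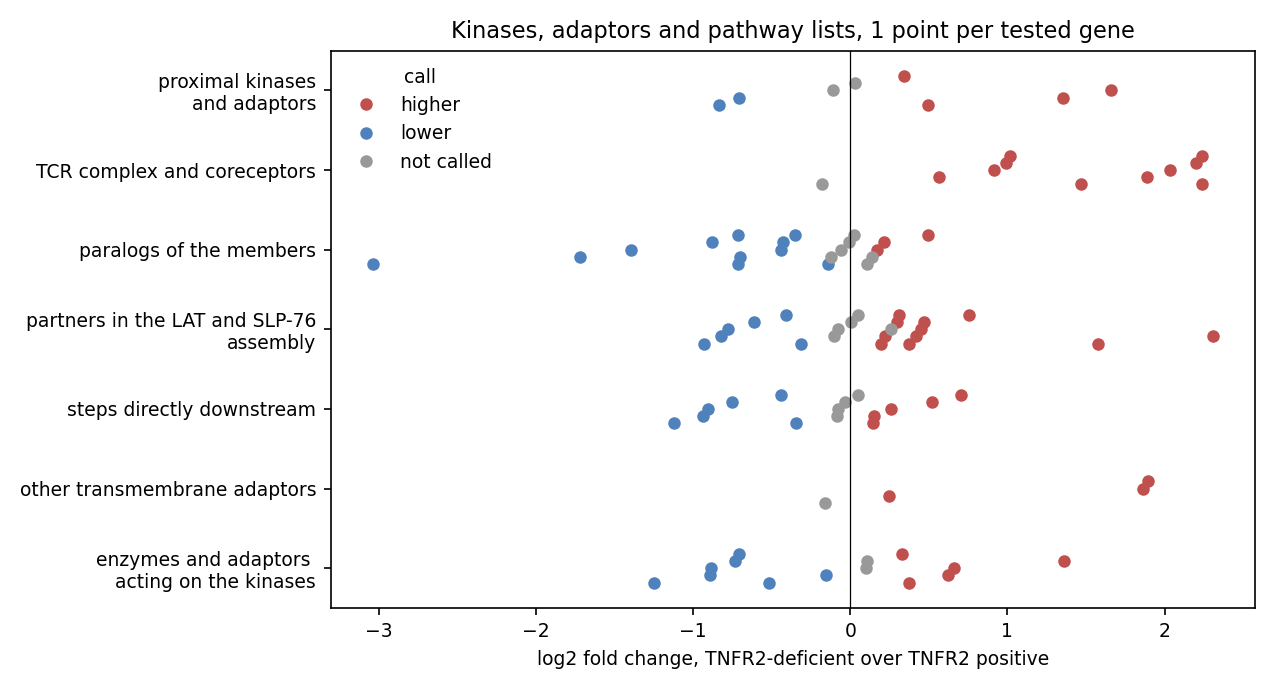
Log2 fold change, TNFR2-deficient over TNFR2 positive, for each tested gene of the 8 kinases and adaptors and of 6 lists of related genes, coloured by the call at an edgeR adjusted p below 0.05. Genes of the TCR complex lie mostly to the right of 0, paralogs mostly to the left, and the other lists on both sides.

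The gene whose pattern over the 6 libraries came nearest to each of the 8 genes was sought among 9958 named genes with a mean of at least 5 CPM, by the root mean square distance of centred log2 CPM. For Lck it was Ctsb (distance 0.0189 on the log2 scale), for Lat Ccnd3 (0.0392), for Zap70 Tprgl (0.0179) and for Lcp2 Tsen54 (0.021). For Fyn it was Sgk1 (0.0227), for Prkcq Card6 (0.0255), for Plcg1 Pou2f2 (0.0129) and for Vav1 Tpst1 (0.0111). With 2 groups of 3 libraries such a match mostly reflects a like difference between the groups, as with Lck and Ctsb, at log2FC of 1.36 and 1.36.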

How the data were processed

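The RNA, isolated with TRIzol, was enriched for mRNA on oligo-dT beads and made into PCR-amplified libraries, per the labels' protocols, which describe no molecular identifiers. HISAT2 2.1.0 and build GRCm39 are named in the submitters' processing notes. Which program, annotation and strand setting produced the counts is not given in the sources used here. Raw counts per gene were deposited. Of 32377 identifiers 30529 matched a symbol in the gene name table, and exonic lengths were taken from GENCODE M21 (GRCm38). RefSeq promoter windows are of GRCm38.p6, and no coordinate was converted.

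Counts were filtered with filterByExpr, TMM-scaled and tested with glmQLFit and glmQLFTest in edgeR 4.0.16 (R 4.3.3), group as the factor, with Benjamini-Hochberg adjustment over 17022 genes and a threshold of 0.05. The procedure was tested on simulated data. Few genes changed in the simulation of fold changes, unlike in these libraries, so it cannot decide between the scales. Alternatives were DESeq2 1.42.0, limma-voom (limma 3.58.1), other scalings and filters, a minimum fold, a replicate block, removal of length relations by splines, and leaving out each library. Scaling to Trac was added after seeing the data. The genes and lists were chosen with earlier results of these data known. Named genes were all 8 members, the 3 of each pathway list with the smallest adjusted p, the paralog of each with the highest mean CPM, the nearest gene by pattern, and Tnfrsf1b, Foxp3 and Rag1. Trac, Trbc1, Trbc2, Zhx3, Blk, Frk and Lime1, and the CD3 chains as single genes, were named after their values were seen. A floor of 3 counts was 0.125 to 0.155 CPM, for counting error only.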

Additional observations from a re-analysis of the deposited data

How the results depend on the processing

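Lck and Lat kept direction and call under all 19 alternatives, with log2FC of 0.28 to 1.40 and 0.58 to 1.71 and edgeR, DESeq2 or limma adjusted p of at most 0.00109 and 1.18e-05. Leaving out each library kept all 6 calls, with log2FC of 1.33 to 1.38 for Lck, 0.47 to 0.51 for Zap70, 1.61 to 1.69 for Lat, 0.32 to 0.35 for Lcp2, -0.74 to -0.66 for Fyn, -0.13 to -0.084 for Plcg1, -0.87 to -0.80 for Prkcq and -0.0060 to 0.046 for Vav1, which changed sign without TNFR2 positive replicate 1 and was not called.

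Scaled to the CD3 chains, log2FC was -0.58 for Zap70, -0.74 for Lcp2, -1.19 for Plcg1 and -1.05 for Vav1, all called lower, with 2 of the 8 genes called higher and 6 lower, and 684 and 14367 of all genes, and 11 and 73 of the pathway and paralog genes. Scaled to Trac, log2FC was -0.068 for Zap70, -0.22 for Lcp2, -0.67 for Plcg1 and -0.53 for Vav1, and all but Zap70 were called lower, with 2 and 5 of the 8 genes, 1495 and 10575 of all genes and 15 and 61 of the pathway and paralog genes called higher and lower. These shifts follow from the scales, since CD3 and Trac were higher in TNFR2-deficient libraries. With RLE size factors Plcg1 was called lower (log2FC = -0.14, edgeR adjusted p = 0.0438) and Vav1 was at -0.0022. With the length relation removed Plcg1 was called higher (log2FC = 0.19); longer genes were lower across genes (rho = -0.298 between log2FC and exonic length).

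With a minimum log2 fold change of 1, the calls of Zap70, Lcp2, Fyn and Prkcq were lost (log2FC = 0.50, 0.34, -0.71 and -0.83, adjusted p = 1 each), which left 2 of the 8 genes higher and 0 lower, 764 and 1434 of all genes and 11 and 4 of the pathway and paralog genes. In that test 12.9% of all genes were called; in the main edgeR test 2 of the 8 genes were lower. By the length of the longest coding transcript, 4 of the 8 genes kept their rank in TNFR2 positive libraries.

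No pairing by replicate number was visible: same-numbered libraries deviated together with correlations of 0.0372, 0.054 and -0.0611, and not every library correlated best with its own number. The labels state no pairing, and correlations among so few libraries cannot exclude it. With the replicate block 4 of the 8 genes rose and 2 fell, as without it, and 6005 and 5851 of all genes were called higher and lower. The block left 10 of the 11 TCR complex and coreceptor genes higher and called 1 lower, against none without it. DESeq2, limma-voom, upper-quartile and library-size scaling and both other filters changed no call of the 8 genes. Nor did a fit without mitochondrial genes and the listed B cell, erythroid, platelet and myeloid markers. That fit drops those genes only and leaves in any counts that other cells add to the 8 genes. It therefore cannot show the part of other cells in the calls.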
